A study of Mus musculus with 4 samples.

Results

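The segments of the T cell receptor beta locus were examined in sorted CD4+CD8+ double-positive (DP) thymocytes. The mice had a conditional deletion of the Rieske protein gene Uqcrfs1 or were controls. The rows were those whose gene name in the authors' deposited comparison starts with Trbv, Trbd, Trbj or Trbc, which gave 40 of its 11536 rows: 22 variable (V), 2 diversity (D), 14 joining (J) and 2 constant (C) segments. The KO group consisted of 2 C57BL/6 mice carrying floxed Uqcrfs1 alleles and the CD4-Cre transgene, and the WT group of 2 C57BL/6 mice, 1 library per mouse. The control mice have the genotype label WT, whereas the series text calls them heterozygous littermates, and the sources used here do not say whether those mice had the Cre transgene, nor do they give ages.

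The beta chain is assembled from V, D and J segments in CD4-CD8- double-negative (DN) thymocytes, where it pairs with the pre-T alpha chain and drives the cells to the DP stage. CD4-driven Cre becomes active later, around the DP stage, when the alpha chain is being rearranged. The choice of beta segments therefore precedes the deletion, and the beta locus serves as a reference for effects on the alpha locus. A D segment joins a J segment first, a V segment is then added, and splicing links the assembled exon to 1 of a pair of constant regions, Trbc1 or Trbc2, each of which has its own upstream D segment and J cluster.

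The locus runs over 667224 bases of mm10, chr6:40891229-41558452. Trbv1 lies at its start and is separated by 155454 bases from Trbv2, and Trbv2 to Trbv30 follow on the plus strand. A stretch of 251210 bases that holds the trypsinogen genes separates Trbv30 from Trbd1. The first cluster then comprises Trbd1, 7 Trbj1 segments and Trbc1, and the second cluster, which starts 2281 bases further on with Trbd2, comprises 7 Trbj2 segments and Trbc2. Trbv31 lies 9338 bases beyond Trbc2 on the minus strand. The annotation lists 53 genes for the locus. The 22 V segments with the biotype of a gene were all among the 40 rows, and the other 13 annotated Trbv are pseudogenes. Of the pseudogenes, Trbv12-3 and Trbv24 were in the authors' table without a gene name. The authors' table holds the genes over 1 CPM in at least 2 libraries. Trbv21 was just inside that limit, at 1.03 and 0.662 CPM in KO and 0.853 and 1.02 CPM in WT on the scale of the library total, and the highest of the locus below it was the pseudogene Trbv22, at 0.235 and 0.504 CPM in KO and 0.518 and 0.0987 CPM in WT.

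The D segments are short runs rich in guanine, shown here with the longest run of guanines in capitals because Trbd1 had the largest log2 change of the locus with all 4 libraries.
Trbd1: gggacaGGGGGc
Trbd2: gggactGGGGGGGc
The J segments of the first cluster are shown because all 7 had positive log2 changes, followed by the pseudogene Trbj2-6 and by Trbj2-7 of the second cluster. Capitals mark the letters TTNGG, then 4 bases of any kind, then GGN, which encode the Phe-Gly-X-Gly motif after complementarity-determining region 3. They were searched on the coding strand, with no other motif overlapping them, and were found in 11 of the 14 J segments. Trbj1-6, Trbj1-7 and Trbj2-6 do not hold these letters.
Trbj1-1: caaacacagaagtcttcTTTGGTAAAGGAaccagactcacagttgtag
Trbj1-2: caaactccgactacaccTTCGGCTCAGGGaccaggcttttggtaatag
Trbj1-3: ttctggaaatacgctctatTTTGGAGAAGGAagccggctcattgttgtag
Trbj1-4: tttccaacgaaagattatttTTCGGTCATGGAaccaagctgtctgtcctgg
Trbj1-5: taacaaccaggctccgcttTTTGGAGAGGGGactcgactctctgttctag
Trbj1-6: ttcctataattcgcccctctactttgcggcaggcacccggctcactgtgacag
Trbj1-7: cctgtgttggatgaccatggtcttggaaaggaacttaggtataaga
Trbj2-6: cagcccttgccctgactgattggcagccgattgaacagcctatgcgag
Trbj2-7: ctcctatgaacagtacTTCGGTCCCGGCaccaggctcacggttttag
For the Trbv13 and Trbv12 families, for Trbv2 and Trbv29 and for Trbv19, which had the smallest p, the last 30 germline bases are shown, with the letters TGTGCN in capitals. These encode the conserved cysteine, followed by alanine, at the start of complementarity-determining region 3.
Trbv13-2: catcagtgtacttcTGTGCCagcggtgatg
Trbv13-1: catctttgtacttcTGTGCCagcagtgatg
Trbv13-3: cagctgtatatttcTGTGCCagcagtgatg
Trbv2: ggccacatacttcTGTGCCagcagccaaga
Trbv12-2: tctgccgtgtacttcTGTGCCagctctctc
Trbv12-1: tctgctatgtacttcTGTGCCagctctctc
Trbv19: tggccgtttttctcTGTGCCagcagtatag
Trbv29: atctgtgtacttcTGTGCTagcagtttatc
These sequences are the germline segments of the GENCODE M21 transcripts on mm10, not junctions read from the libraries.

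Reads assigned to genes numbered between 30408863 and 34080516 per library. Uqcrfs1, the targeted gene, stood at 15.6 and 18.6 CPM in KO against 61.4 and 57.2 CPM in WT (log2 change -1.80, SE 0.09, adjusted p = 1.78e-04 by edgeR's quasi-likelihood F test). CPM is the count of a gene scaled to the same fixed total of gene-assigned reads in every library, with library sizes scaled by TMM. By that test 3 of 13281 genes passed an adjusted p of 0.05, which is 0.0226%, and 53, 44, 41 and 365 passed without KO replicate 1, KO replicate 2, WT replicate 1 and WT replicate 2 in turn. The defining DP markers were abundant in every library, with a summed level of 19299 and 19140 CPM in KO and 18348 and 19592 CPM in WT over 10 genes. KO replicate 2 stood apart in genes of other cells. Its summed level of the low γδ T cell markers, those under 5 CPM in WT, was 17.5 CPM, against 4.58 CPM in KO replicate 1 and 5.06 and 3.99 CPM in WT, and the low B cell markers stood at 17.7, 4.28, 4.97 and 3.75 CPM in the same order. The series text counts 2 mice per group, so p-values measure the spread between mice, which 2 per group estimate poorly.

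None of the 40 beta locus segments passed the threshold in the comparison of KO with WT. At an unadjusted p under 0.05 there were 5, namely Trbv19, Trbd1, Trbj1-2 and Trbj1-5 with positive and Trbc2 with negative log2 changes, where 8.4% of all tested genes had such a p, 4.4% with KO higher and 4.01% with KO lower. That count was 2 without either KO library, 4 without WT replicate 1, 8 without WT replicate 2 and, by DESeq2 on the same genes, 2. DESeq2 called 0 after adjustment. The smallest adjusted p over the 40 segments was 0.526 (Trbv19), and the authors' deposited table marks 0 of them either, with a smallest adjusted p of 0.452. The median log2 change was 0.08 over the 40 segments and 0.00 over all tested genes. Over the segments it was 0.03 without KO replicate 1 and 0.09 without KO replicate 2. Without WT replicate 1 it was 0.04, and without WT replicate 2 it was 0.08. By class, the median with every library was 0.02 for Trbv (11 of 22 positive) and 0.23 for Trbd (2 of 2). It was 0.13 for Trbj (12 of 14) and -0.06 for Trbc (0 of 2), where 49.9% of all tested genes had a positive change. The libraries of the groups did not overlap for 22 of the 40 segments, 17 of them with KO higher and 5 with KO lower, where 20.4% and 20.1% of all tested genes did so, 40.5% in all.

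**Figure D1:**
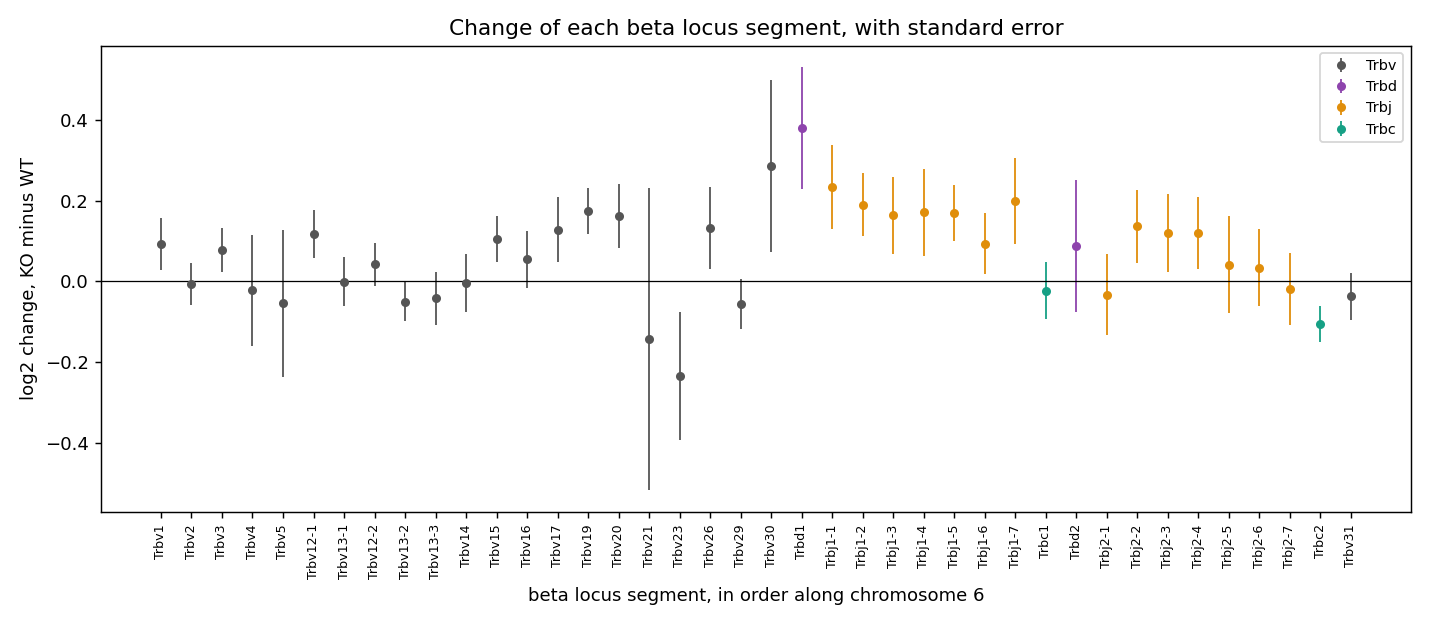
Log2 change of KO minus WT (y axis) for each of the 40 beta locus segments in order along chromosome 6 (x axis), with points for the fitted change and bars for its standard error, coloured by segment class. The 7 Trbj1 segments lie between 0.09 and 0.23, Trbd1 is highest at 0.38 and both Trbc are below 0.

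Trbv13-2 had the largest share of the Trbv counts in every library, and the order of the shares was close to the same in KO and WT. These shares are of counts not divided by segment length. Trbv13-2, formerly Tcrb-V8.2, held 15.5% and 15.7% of the summed Trbv counts in KO replicates 1 and 2 and 16.6% and 16.5% in WT replicates 1 and 2. It lies at chr6:41121396-41121832 and its share was about that of the following pair of segments together. Trbv2 held 7.74% and 8.01% in KO and 7.96% and 8.24% in WT. Trbv13-1, formerly Tcrb-V8.3, held 8.07% and 7.40% in KO and 8.01% and 7.85% in WT, and Trbv12-2 held 7.66% and 7.54% in KO and 7.32% and 7.82% in WT. For these last 3 segments the shares of the groups overlapped. The 4 segments together accounted for 38.9% and 38.7% of Trbv counts in KO and 39.9% and 40.4% in WT, with a 95% Wilson interval of 38.4% to 39.4% for KO replicate 1. The 12 segments with the highest shares accounted for 83.5% and 84.4% in KO and 84.0% and 84.1% in WT. Intervals of this kind cover counting error only.

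The next segments in the order had smaller shares. Trbv15 held 7.03% and 7.23% in KO and 6.50% and 7.08% in WT, and Trbv16 held 6.49% and 6.53% in KO and 6.80% and 6.04% in WT. Trbv3 held 6.17% and 6.07% in KO and 5.86% and 6.02% in WT. Trbv12-1 held 5.99% and 6.10% in KO and 5.86% and 5.56% in WT. For Trbv3 and Trbv12-1 both KO shares were above both WT shares, and for Trbv15 and Trbv16 they were not. Trbv1, the first segment by position, held 4.99% and 5.50% in KO and 5.03% and 5.04% in WT, so that KO replicate 2 alone was above the other libraries. At the other end of the locus Trbv31, the inverted segment, held 4.15% and 4.16% in KO and 4.33% and 4.41% in WT. Trbv29 held 3.94% and 4.01% in KO and 4.32% and 4.14% in WT. Both Trbv31 and Trbv29 were lower in both KO libraries, with differences of the group means of -0.213 and -0.257 percentage points.

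**Figure D2:**
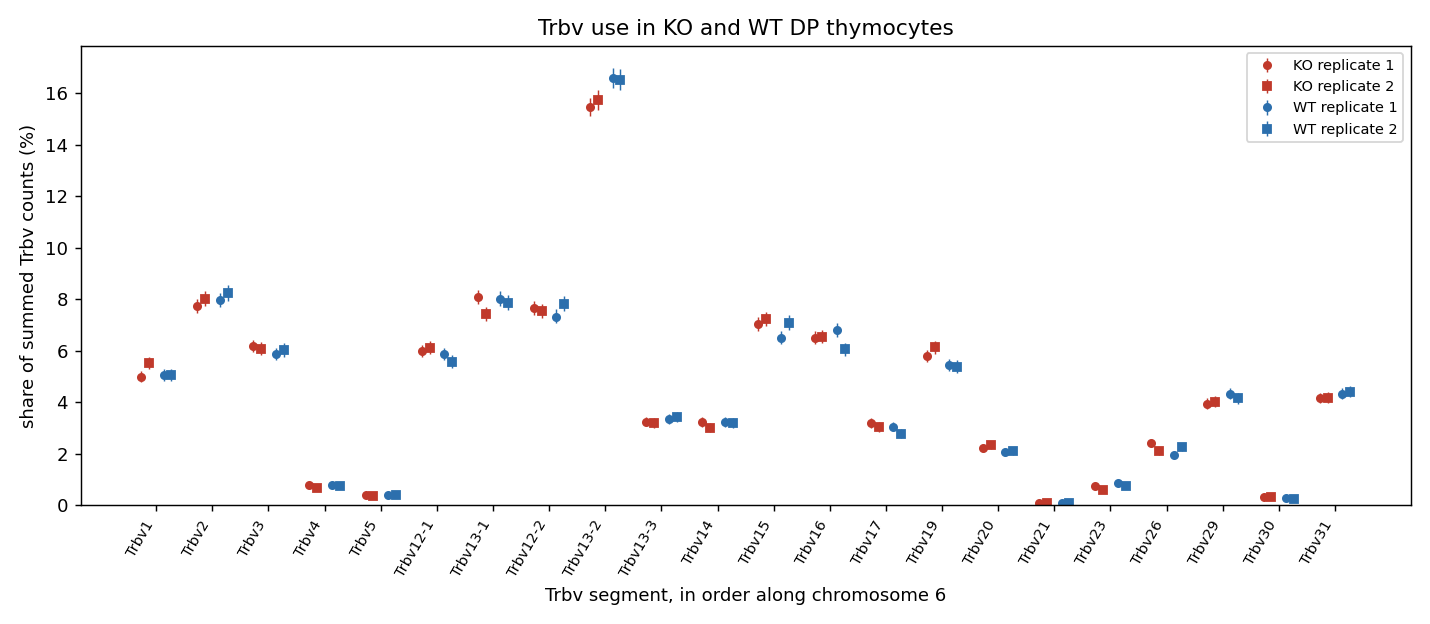
Share of the summed Trbv counts (y axis, percent) held by each of the 22 Trbv segments in order along chromosome 6 (x axis), 1 point per library with its 95% Wilson interval. Trbv13-2 stands highest in every library, at 15.5% and 15.7% in KO and 16.6% and 16.5% in WT.

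Compared per length, the V segments spanned a wide range of levels, from 2.33 CPM per kb of annotated exon for Trbv21 to 509 CPM per kb for Trbv13-2, a ratio of 219, with a median of 109 CPM per kb. Trbv13-1, Trbv12-2, Trbv15 and Trbv16 followed Trbv13-2, at 231, 212, 203 and 175 CPM per kb. Trbv4, Trbv5, Trbv23 and Trbv30 were low, at 20.4, 10.9, 22.4 and 8.79 CPM per kb. Reads of Trbv4 and Trbv5 are uncertain, since a long non-coding RNA gene, 5830405F06Rik, overlaps both on the same strand and shares 72.1% and 77.4% of their 50-base windows. The 13 pseudogene rows together stood at 7.01 and 7.79 CPM in KO and 7.83 and 7.87 CPM in WT, and 5 of them had 0 counts in every library.

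Trbv19 had the smallest p of the locus. It stood at 63.2 and 66.5 CPM in KO and at 58.4 and 56.5 CPM in WT, means of 64.9 ± 2.33 and 57.5 ± 1.35 CPM (SD, n = 2 per group), so that both KO libraries were above both WT libraries. The log2 change was 0.17 (SE 0.06), with an unadjusted p of 0.0151 and an adjusted p = 0.526 (edgeR), and it lay between 0.14 and 0.21 when each library was left out. As a share of Trbv counts, Trbv19 (formerly Tcrb-V6) held 5.78% and 6.13% in KO and 5.44% and 5.36% in WT. The largest positive log2 change of a V segment belonged to Trbv30, the last V segment before the D segments, at 0.29 (SE 0.21) from only 110 and 103 counts in KO and 93 and 75 in WT. The lowest changes were those of Trbv23, at -0.24 (SE 0.16), and Trbv21, at -0.14 (SE 0.38). Trbv21 had 35 and 21 counts in KO and 28 and 31 in WT.

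Segments used by the beta chains of invariant natural killer T (iNKT) cells, which pair a fixed alpha chain with beta chains of the Trbv13, Trbv29 and Trbv1 types, are of interest here because iNKT cells arise from DP thymocytes and are the subject of the series. Trbv1, Trbv13-1, Trbv13-2, Trbv13-3 and Trbv29 together held 35.7% and 35.8% of Trbv counts in KO and 37.3% and 37.0% in WT. The difference of the means was -1.37 percentage points, with both KO libraries below both WT libraries (35.8% ± 0.10 and 37.1% ± 0.25, SD, n = 2 per group). A two-sided exact permutation test gave p = 0.333, the smallest value that 2 against 2 libraries allow. Left-out libraries gave differences between -1.55 and -1.19 points. Trbv13-2 accounted for -0.95 points of it, Trbv29 for -0.26, Trbv13-1 for -0.20 (0.14 without KO replicate 2) and Trbv13-3, which held 3.24% and 3.17% in KO and 3.35% and 3.43% in WT, for -0.18. The difference of Trbv1 was 0.21, and it was -0.05 without KO replicate 2. None of the 5 passed the test as a gene, and their log2 changes lay between -0.06 and 0.09. The level of Trbv13-2 was also lower in both KO libraries, at 169 and 171 CPM in KO and 178 and 174 CPM in WT (log2 change -0.05, SE 0.05, adjusted p = 0.794). By level, 3 of the 5 segments were lower in KO without overlap, Trbv1 was higher without overlap and Trbv13-1 overlapped. A share also falls when its denominator rises. The denominator here, the summed Trbv level, was higher in KO by a log2 difference of 0.04. Its part in the share difference was not tested. In these bulk libraries a smaller fraction of cells using a segment and less RNA per cell cannot be told apart.

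Grouped by position, the shares differed by at most 1.28 percentage points between the group means. The segments from Trbv14 to Trbv26 held 31.1% and 31.0% in KO and 29.9% and 29.6% in WT. Those from Trbv12-1 to Trbv13-3, which alternate along the chromosome, held 40.4% and 39.97% in KO and 41.1% and 41.2% in WT. Trbv29 to Trbv31 held 8.38% and 8.47% in KO and 8.92% and 8.78% in WT. For these 3 groups the libraries did not overlap, each at p = 0.333 in the exact permutation test, again the smallest possible. Trbv2 to Trbv5 held 15.1% and 15.1% in KO and 14.98% and 15.4% in WT, and overlapped. Segments close together could differ in opposite directions. The difference was 0.335 points for Trbv12-1 (0.185 without WT replicate 2) and -0.949 points for Trbv13-2, which lies close to it. Whether the differences of single segments follow position was not tested.

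The V profiles of 2 libraries were compared by the share of counts that would have to move to another segment to make them equal. This distance was 2.00 points between the KO libraries and 2.05 points between the WT libraries, and ran from 2.46 to 3.06 points over the 4 pairs of a KO with a WT library. Chi-square per degree of freedom (21 degrees) was 2.63 and 2.5 within the groups and 2.73 to 4.63 between them, so replicate mice already differed by more than counting error. Of the 22 segments, 17 differed by less than 0.25 points between the group means, and the largest difference was that of Trbv13-2. The groups' shares did not overlap for 10 segments, 5 higher and 5 lower in KO, beside the 40.5% of all tested genes whose CPM did not overlap. For J profiles the distance was 2.72 points between the KO libraries and 3.11 points between the WT libraries, and 2.56 to 3.15 points between a KO and a WT library.

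Members of the Trbv13 and Trbv12 families resemble each other, which bears on how well their counts are separated. Trbv13-2 and Trbv13-3 are identical at 90.6% of aligned bases, Trbv12-1 and Trbv12-2 at 87.4%, and Trbv13-1 and Trbv13-2 at 87.1%, where the median over all 231 pairs of V segments was 46.4%. Windows of 50 bases that recur exactly in another gene's transcripts were few all the same, at 0.34% for Trbv13-2 and Trbv13-3 each, 1.19% for Trbv12-2 and 0 for Trbv12-1 and Trbv13-1. The sources used here do not state the read length.

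Summed over segments, V counts stood at 1095 and 1086 CPM in KO and 1075 and 1054 CPM in WT, with means of 1090 ± 5.79 and 1064 ± 15 CPM (SD, n = 2 per group). The log2 difference was 0.04 (exact permutation p = 0.333, two-sided). Constant region counts summed to 3528 and 3324 CPM in KO and 3690 and 3525 CPM in WT, and the groups overlapped (log2 difference -0.07, exact permutation p = 0.667). For each 100 counts of Trbc there were 31.0 and 32.7 counts of Trbv in KO and 29.1 and 29.9 in WT, which did not overlap.

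Of the constant regions, Trbc2 was lower in both KO libraries. It stood at 2092 and 2077 CPM in KO and at 2274 and 2212 CPM in WT, means of 2085 ± 10.4 and 2243 ± 43.9 CPM (SD, n = 2 per group). The log2 change was -0.11 (SE 0.05), with an unadjusted p of 0.0450 and an adjusted p = 0.581 (edgeR). Trbc1 stood at 1436 and 1247 CPM in KO and 1415 and 1312 CPM in WT, and its groups overlapped (log2 change -0.02, SE 0.07, adjusted p = 0.942; 0.07 without KO replicate 2 and 0.03 without WT replicate 1). Per length of annotated exon, Trbc2 had 3127 CPM per kb and Trbc1 1806 CPM per kb over the 4 libraries. Trbc1 made up 40.7% and 37.5% of Trbc counts in KO and 38.4% and 37.2% in WT (exact permutation p = 0.667). The difference of the means, 1.31 points, became -0.28 points without KO replicate 1.

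Counts of the constant regions are uncertain because much of their coding sequence is shared. Exon 1, chr6:41538218-41538592 for Trbc1 and chr6:41546730-41547104 for Trbc2, has 375 bases in each and differs at 1 base, C260A, counted from the first base of the exon with Trbc1 first. The stretch around it is shown with that base in capitals.
Trbc1: acaatcctcgCaaccacttcc
Trbc2: acaatcctcgAaaccacttcc
Exons 2 and 3 differ at 3 of 18 and 15 of 107 bases, and exon 4, of 237 bases in Trbc1 and 192 in Trbc2, is 49.4% identical. Of the 50-base windows of Trbc1 and Trbc2, 40.5% and 44.0% recur exactly in the other gene. A single read of 50 bases from such a window would have no unique place, and the read length is not stated. The counting summary lists 23.6% and 23.2% of its aligned entries as not unique in KO and 24.7% and 23.4% in WT, and their part in the Trbc2 difference was not tested.

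The D segments had few counts. Trbd1 stood at 7.28 and 7.31 CPM in KO and 5.09 and 6.13 CPM in WT, from 248 and 232 counts in KO and 167 and 186 in WT. Its log2 change was 0.38 (SE 0.15), the largest of the locus with all 4 libraries, with an unadjusted p of 0.0329 and an adjusted p = 0.562 (edgeR). It lay between 0.25 (without WT replicate 1, where Trbv30 had 0.39) and 0.52 (without WT replicate 2). Trbd2 stood at 6.10 and 5.11 CPM in KO and 5.51 and 5.04 CPM in WT, and overlapped (log2 change 0.09, SE 0.16; -0.05 without KO replicate 1). Since the D segments are 12 and 14 bases long, a read counted there extends into the bases beside them.

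All 7 Trbj1 segments had positive log2 changes, between 0.09 and 0.23 with a median of 0.17, and for 6 of them both KO libraries were above both WT libraries, against 20.4% of all tested genes. None passed the test. Trbj1-2 stood at 36.6 and 32.5 CPM in KO and 29.9 and 30.6 CPM in WT (log2 change 0.19, SE 0.08, adjusted p = 0.571 in edgeR's test). Trbj1-5 stood at 33.4 and 35.4 CPM in KO and 30.8 and 30.4 CPM in WT (0.17, SE 0.07, adjusted p = 0.571). Trbj1-1 had the largest change of the cluster, 0.23 (SE 0.10), at 14.3 and 13.2 CPM in KO and 11.3 and 12.1 CPM in WT. Trbj1-6 had the smallest, 0.09 (SE 0.08), at 29.7 and 28.3 CPM in KO and 26.3 and 28.1 CPM in WT. Only for Trbj1-4 did the groups overlap, at 22.0 and 18.3 CPM in KO and 17.3 and 18.6 CPM in WT.

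The log2 changes of the Trbj2 segments lay between -0.03 and 0.14, with 5 of 7 positive and a median of 0.04. For 2 of 7 both KO libraries were above both WT libraries, where 20.4% of all tested genes were, and for 0 both were below. The median depended on the WT libraries: leaving out WT replicate 1 gave 0.01, beside 0.12 for Trbj1, and leaving out WT replicate 2 gave 0.19, beside 0.22 for Trbj1. Trbj2-7, which had the highest level of the J segments per length over the 4 libraries, stood at 35.1 and 31.7 CPM in KO and 31.5 and 36.4 CPM in WT. Trbj2-6 is annotated as a pseudogene and, as shown above, holds no Phe-Gly-X-Gly letters, and it stood at 26.5 and 25.4 CPM in KO and 23.2 and 27.5 CPM in WT. Per length of annotated exon it had 534 CPM per kb over the 4 libraries, below Trbj2-7 (717 CPM per kb) and above the other 5 Trbj2 segments, which lay between 290 and 431 CPM per kb.

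**Figure D3:**
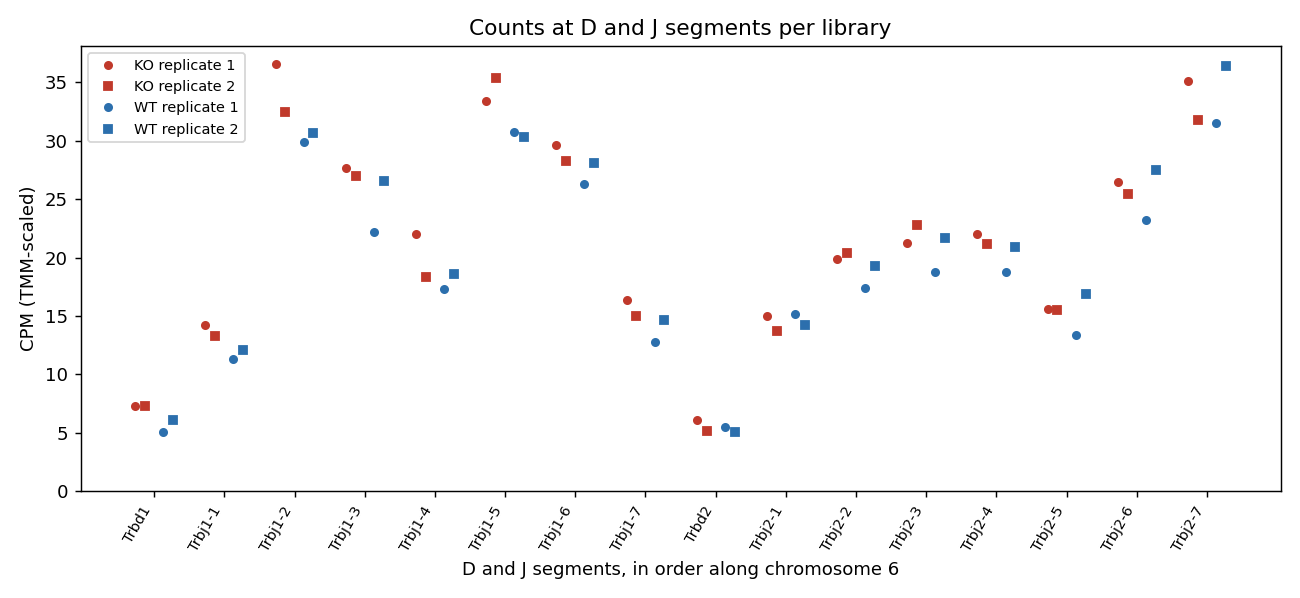
TMM-scaled CPM (y axis) at each D and J segment in order along chromosome 6 (x axis), 1 point per library. In the first cluster, from Trbd1 to Trbj1-7, the KO points lie above the WT points except at Trbj1-4; in the second cluster, from Trbd2 on, the groups overlap at most segments.

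Summed, the Trbj1 cluster stood at 180 and 170 CPM in KO and 151 and 161 CPM in WT, means of 175 ± 7.24 and 156 ± 7.38 CPM (SD, n = 2 per group), a log2 difference of 0.17. The Trbj2 cluster stood at 155 and 151 CPM in KO and 138 and 157 CPM in WT. The summed Trbj log2 difference was 0.11 (exact permutation p = 0.333), and leaving out WT replicate 1 gave 0.04, leaving out WT replicate 2 gave 0.18. Trbj1 made up 53.7% and 53.0% of Trbj counts in KO and 52.1% and 50.6% in WT, 1.93 points more in KO, with no overlap and p = 0.333 in the exact permutation test. Leaving out WT replicate 1 gave 2.67 points, and leaving out WT replicate 2 gave 1.20 points. Relative to its constant region, the first cluster had 12.5 and 13.6 counts of Trbj1 per 100 counts of Trbc1 in KO and 10.6 and 12.3 in WT. The second had 7.43 and 7.25 counts of Trbj2 per 100 of Trbc2 in KO and 6.08 and 7.09 in WT.

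A read that reaches from a J segment into a V or C segment may be counted as ambiguous, depending on a counting mode that the sources used here do not state. The share of uniquely aligned reads that fell outside annotated exons was 20.6% and 19.9% in KO replicates 1 and 2 and 17.2% and 18.6% in WT replicates 1 and 2. The 4 libraries have the same order in this share as in the summed Trbj1 level. The part of reads from unspliced RNA in the Trbj1 difference was not tested. DN markers had a higher sum in both KO libraries. They summed to 137 and 176 CPM in KO and 108 and 109 CPM in WT over 14 listed genes. In every library 0 of these were at 0. The test called 0 of the 9 tested, with a smallest adjusted p of 0.124 (edgeR). Positive changes were seen in 8 of the 9, where 49.9% of all tested genes had one. Among them were Il2ra (12.9 and 26.4 CPM in KO, 8.50 and 10.5 CPM in WT), Notch3 (82.5 and 98.4, against 65.9 and 65.1) and Dtx1 (18.4 and 25.3, against 10.97 and 11.2). Notch3 made up most of the sum. Kit and Lyl1 changed little (log2 change 0.03 each), and Nrarp had a log2 change of -0.14. The low DN markers, those under 5 CPM in WT, summed to 4.43 and 6.65 CPM in KO and 4.91 and 5.11 CPM in WT, so their groups overlapped. DN markers were highest in KO replicate 2 and the summed Trbj1 level in KO replicate 1. The part of DN cells in the Trbj1 difference was not tested. Without KO replicate 2 the median log2 change of the Trbj1 segments was 0.26, and without KO replicate 1 it was 0.13, with 7 of 7 positive in each.

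**Figure D4:**
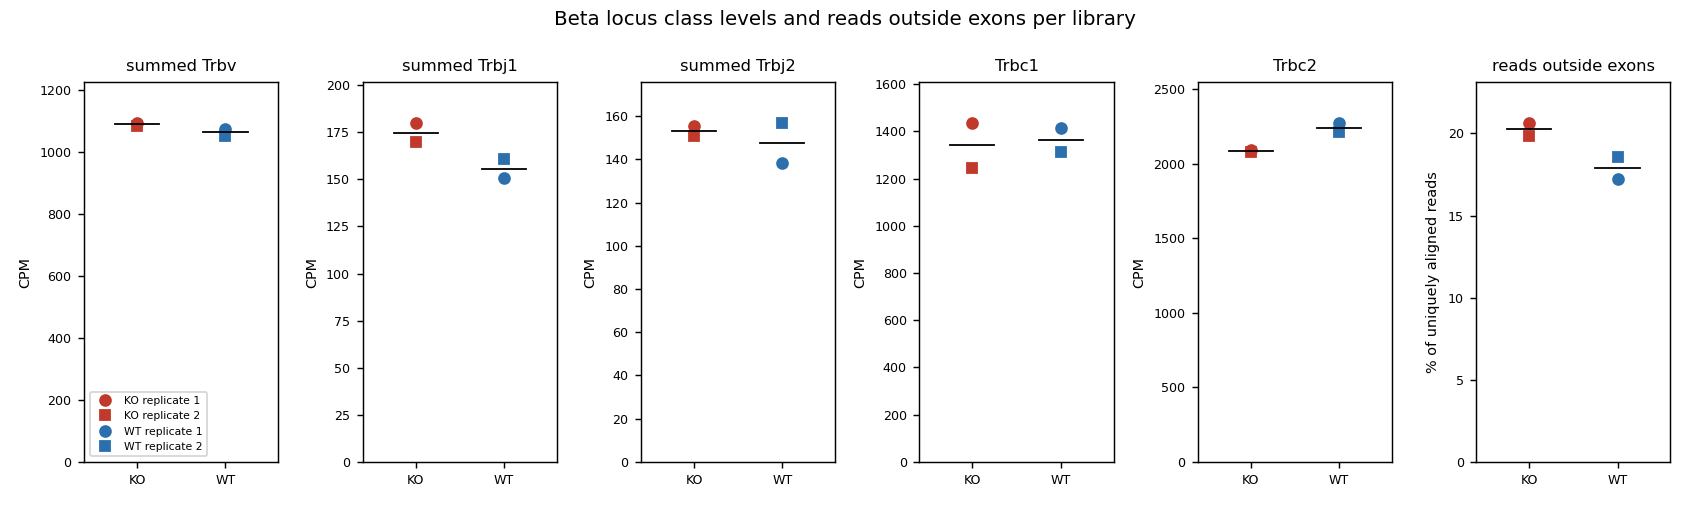
Levels of the beta locus classes in TMM-scaled CPM (first 5 panels) and reads outside annotated exons as a percentage of uniquely aligned reads (last panel), 1 point per library and a line at each group mean, with every y axis from 0. Summed Trbj1 and reads outside exons are higher in both KO libraries, Trbc2 is lower, and summed Trbj2 and Trbc1 overlap.

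Partners of the beta chain and the machinery of its assembly were not called either. Of 14 genes for the T cell receptor complex and its proximal signalling, 5 had positive and 9 negative log2 changes (median -0.04), 0 passed and 7 were lower in KO without overlap, where 20.1% of all tested genes were. Cd3g and Cd3d, which encode CD3 chains that carry the receptor to the surface, had lower levels in both KO libraries. Cd3g stood at 481 and 496 CPM in KO against 529 and 531 CPM in WT, and Cd3d stood at 428 and 413 CPM in KO against 454 and 456 CPM in WT. Both had log2 changes near that of Trbc2, -0.12 and -0.11 (SE 0.05 each). Ptcra, which encodes the pre-T alpha chain, stood at 31.5 and 37.3 CPM in KO and 35.6 and 34.0 CPM in WT. Of 16 tested recombination and end-joining genes, 10 were positive and 0 passed. Without overlap of the groups, 4 were higher and 3 lower in KO, where 20.4% and 20.1% of all tested genes were. The 3 lower ones were Xrcc5, Nhej1 and Xrcc4, with log2 changes of -0.12 (SE 0.08), -0.15 (SE 0.12) and -0.03 (SE 0.08). The 4 higher ones were Trp53bp1, Lig4, Polm and Atm. Trp53bp1, a double-strand break response factor, stood at 73.1 and 75.9 CPM in KO and 61.7 and 65.5 CPM in WT (log2 change 0.23, SE 0.06, adjusted p = 0.443 in edgeR's test), and Lig4, the end-joining ligase, at 177 and 175 CPM in KO and 158 and 170 CPM in WT.

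Of 18 transcription factors that act on the beta enhancer or the locus in thymocytes, 13 had positive changes and 0 passed (median 0.03). Creb1, a factor that binds V beta promoter elements, stood at 277 and 275 CPM in KO and 247 and 257 CPM in WT, and Myb at 1540 and 1554 CPM in KO and 1364 and 1467 CPM in WT. Of 19 genes found inside or beside the locus, 6 had enough counts for the test, with 4 positive and 0 called. Ephb6, a kinase-dead ephrin receptor gene downstream of Trbv31 that is abundant in thymocytes, stood at 358 and 338 CPM in KO and 370 and 372 CPM in WT, and Kel at 0.704 and 0.693 CPM in KO and 0.183 and 0.527 CPM in WT.

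The alpha locus, which is rearranged in DP cells, was measured in the same fit. Of 60 tested Trav rows 34 had positive changes, with a median of 0.03 and 0 called, and of 45 tested Traj rows 28 were positive, with a median of 0.15 and 0 called. Trac stood at 367 and 404 CPM in KO and 353 and 375 CPM in WT. Trav counts summed to 125 and 122 CPM in KO and 117 and 121 CPM in WT, and Traj counts to 41.0 and 47.8 CPM in KO and 36.8 and 44.1 CPM in WT. The difference between the loci was not tested.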

How the data were processed

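RNA of 4 libraries of sorted DP thymocytes was sequenced by the submitters. Per the submitters' processing notes, Trimmomatic 0.33 (trimming), STAR 2.5.2 (alignment), HTSeq (counting) and the build mm10 were used; the counting mode, strand setting and annotation are not stated in those sources. The files the authors deposited hold raw counts for each Ensembl gene, equal in the series table and the library files (0 differing cells). The authors' deposited comparison holds CPM per library total, log2 fold changes, p-values and a likelihood ratio score; from it only the gene names, adjusted p and marks were used. Library sizes leave out HTSeq's summary lines, among which reads outside annotated exons came to 17.2% to 20.6% of uniquely aligned reads. The deposited lengths add up overlapping transcripts, so merged exon lengths of GENCODE M21 (mm10) were used; all 40 segments have the same positions there, and 1 (Trbv4) was matched by position, its identifier having changed.

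The test was edgeR 4.0.16 (R 4.3.3) quasi-likelihood with robust estimation, filterByExpr (minimum count 10, total 15), TMM scaling and Benjamini-Hochberg adjustment over 13281 genes, with group as the only term; it was tested on simulated data. Log2 changes are KO minus WT, and each standard error (SE) is the size of the change over the root of its F value. Sums and shares were compared by two-sided exact permutation over libraries, which cannot go below p = 0.333. Shares have 95% Wilson intervals (scipy 1.17.1). Alternatives were RLE scaling, filters, DESeq2 1.42.0, a replicate block, left-out libraries and other share denominators. Named segments were both Trbc and Trbd, the 12 Trbv with the highest shares, the first and last Trbv and the iNKT-associated Trbv. The 4 Trbj with the highest counts, the 3 largest changes in each direction and those with an unadjusted p under 0.05 were also named. Trbj1-4, Trbj2-6, Trbv4, Trbv5, Xrcc5, Nhej1, Xrcc4, Polm, Atm, Kit, Lyl1 and Nrarp were added after their values were seen. The segments and gene lists were chosen with earlier results of these data known.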

Additional observations from a re-analysis of the deposited data

How the results depend on the processing

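The count of beta locus segments called was 0 under all alternatives run. The count of all genes called, 3, moved to 191 with every gene of at least 1 count, to 22 with DESeq2 on those same 20968 genes, to 24 with DESeq2 on the 13281 genes tested by edgeR (chosen after seeing the data) and to 27 with the replicate block, and lay between 41 and 365 with 1 library left out. The library titles give replicate numbers and state no pairing of mice. The correlation of same-numbered deviations was 0.09 across genes, which cannot settle from 4 libraries whether same-numbered ones are paired. Under the replicate block all 40 segments kept their direction. The Uqcrfs1 change lay between -1.93 and -1.68 over left-out libraries. Directions of all 40 segments held under RLE scaling, both filters and DESeq2. Leaving out 1 library each changed the direction of 13 segments, and 27 kept it, among them all 7 Trbj1. Over left-out libraries the log2 changes ran from -0.027 to 0.0112 for Trbv2, -0.16 to 0.10 for Trbv4, -0.153 to 0.0336 for Trbv5, -0.0718 to 0.0637 for Trbv13-1, -0.062 to 0.0484 for Trbv14, -0.0455 to 0.154 for Trbv16, -0.50 to 0.13 for Trbv21, -0.0502 to 0.208 for Trbd2, -0.131 to 0.0732 for Trbc1, -0.105 to 0.0311 for Trbj2-1, -0.12 to 0.21 for Trbj2-5, -0.0882 to 0.156 for Trbj2-6 and -0.125 to 0.0828 for Trbj2-7. The cause was not tested. The Trbc1 share difference ran from -0.28 to 2.91 points. With 1 library left in a group, its spread is taken from the other group. Depth limits low segments: Trbv21 and Trbv30 have standard errors of 0.38 and 0.21.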
